A study of Drosophila melanogaster with 16 samples.

Results

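The gene fit (female-specific independent of transformer, CG17820) was read from 2 of the 27648 spots on each array, a side-by-side pair and the only spots that name it. Both spots were followed over all 16 arrays, and 13 arrays returned a value for both of them. The other 3, replicates 2 and 4 at 12 hrs and replicate 2 on the 7th day, returned none for either spot. fit was chosen by its 2nd day log2 ratios, which made it one of the most lowered genes, so its 2nd day values are given as a description, with no test.

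fit encodes a small secreted protein made chiefly in the fat body, the insect tissue that combines roles of liver and adipose tissue and that also lines the head capsule around the brain. It is expressed more in females than in males, as its name records. In adult flies it is known as a satiety signal for protein: feeding on protein raises its transcript, and the secreted product acts on the insulin-producing cells of the brain and limits further protein intake. A change in a whole-head sample is therefore a change in a mixture, and fewer fat body cells and less fit RNA per cell cannot be told apart.

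The samples were heads of Oregon-R wild type females, virgins 3-4 days old when treatment began. Flies of later time points were therefore older at collection. Heads were sieved from frozen flies and pooled over vials that started with 30 flies each. Treated flies were fed pentylenetetrazol (PTZ) at 8 mg/ml in normal food (NF). PTZ is a proconvulsant that blocks GABA-gated chloride channels. The controls ate NF alone. Flies were collected after 12 hrs, on the 2nd day, on the 7th day, and on the 14th day, which followed 7 days on PTZ and 7 days of withdrawal on NF. Each array compared 1 PTZ pool directly with its own NF pool, 4 arrays for each time point, so no control sample was shared between time points. PTZ was labelled with Cy5 on replicates 1 and 2, and with Cy3 on replicates 3 and 4, the dye swaps. All values are log2 ratios of PTZ over NF. A value of 0 is the median spot of that array, a value of -1 is a level at 50% of NF relative to that median spot, and the dye swap arrays were turned so that a negative value always means less in PTZ.

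Spots measured per array ranged from 8705 to 21961. Array medians, before centring, were between -0.22 and -0.05 at 12 hrs and on the 2nd day, between 0.72 and 1.38 on the 7th day, and between -0.01 and 1.57 on the 14th day. After turning, arrays of 1 time point and 1 dye orientation had Spearman correlations over all features (a feature is a gene or an unnamed pair of spots) of -0.09 to 0.58, with a median of 0.35. Arrays of 1 time point and opposite orientation had -0.44 to 0.35, with a median of -0.22, so arrays of opposite orientation more often ran against each other than together. Replicate 4 of the 7th day is titled 7th day, but its treatment text describes the withdrawal schedule. It correlated at -0.09 to -0.01 with the other 7th day arrays and at -0.32 to 0.25 with the 14th day arrays. It was kept where its title puts it, and the 7th day results of fit, and others that change sign or size, are also given without it, as an alternative partly added after the data were seen. The titles and characteristics of the samples give females, as does the study, but the growth text of the labels speaks of male flies, and fit differs between the sexes. The table holds ratios only, so the level of fit in the head, and the sex and tissue of the labels, could not be checked against absolute signals.

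fit was lower in PTZ at 12 hrs and on the 2nd day, scattered around NF on the 7th day, and was higher in PTZ after withdrawal. At 12 hrs it was at 48.3% of NF (mean log2 -1.05, SD 0.28, n = 2 arrays) and on the 2nd day at 42.1% (mean -1.25, SD 0.15, n = 4). On the 7th day the mean was -0.09 with an SD of 0.72 (n = 3), the widest spread of the 4 time points. On the 14th day it was at 133% of NF (mean 0.41, SD 0.37, n = 4). The means of 12 hrs, the 7th day and the 14th day did not pass the tests given below, and the 2nd day mean was not tested.

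**Figure D1:**
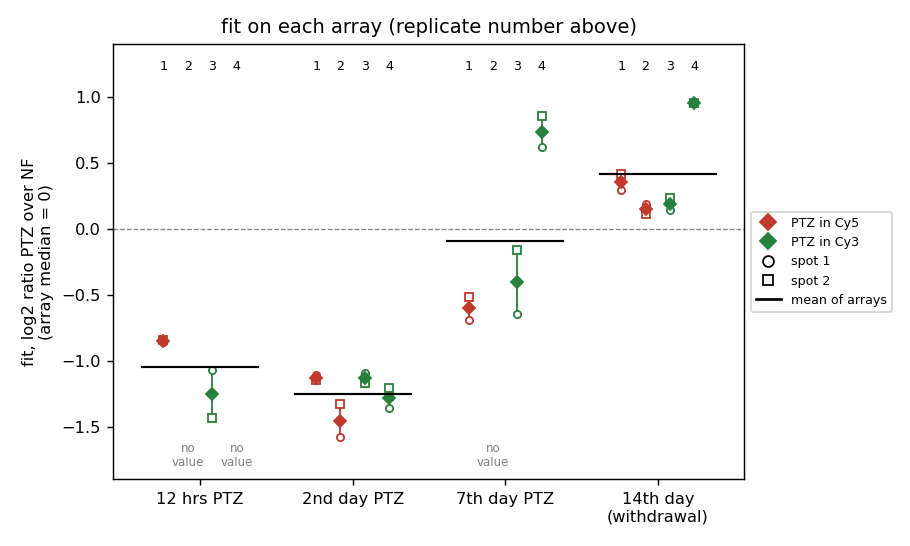
Log2 PTZ over NF of fit on each array (y axis, 0 is the array median), by time point and replicate number: open circles and squares are the spots, diamonds their mean, colour is the dye that carried PTZ, and black lines are the time point means. The 6 arrays of 12 hrs and the 2nd day that measured fit lie at or below -0.85, the 7th day arrays lie on both sides of 0, and the 4 arrays of the 14th day lie above 0.

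On the 2nd day all 4 arrays measured fit and all 4 placed it well below NF. Replicate 1 gave -1.13, replicate 2 gave -1.46, replicate 3 gave -1.13 and replicate 4 gave -1.28, which are 45.7%, 36.5%, 45.6% and 41.1% of NF. The 4 values lie within 0.33 of each other, and the arrays with PTZ in Cy5 (mean -1.29) and in Cy3 (mean -1.21) differed by less than the 2 Cy5 arrays did from each other (SD 0.23). fit was the lowest of the 2850 named genes measured on at least 3 arrays of the 2nd day, and 12 of all 5415 features lay lower. On single arrays it ranked 2nd of 2592, 6th of 3905, 3rd of 2793 and 3rd of 3004 named genes from the bottom. Over all features, 6.75% of those with 4 arrays were below 0 on every 2nd day array, and 0.222% passed limma at an adjusted p under 0.19 (12 of 5415), 11 of them lower (0.203%). fit was 1 of the 11, and since this contrast chose it nothing is read from that.

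Among the named genes called lower on the 2nd day, the nearest to fit was CG8654, with a mean of -1.10 (SD 0.15, n = 3). Next was CROT, carnitine O-octanoyltransferase of fatty acid breakdown, with a mean of -1.08 (SD 0.09, n = 4). The other named genes called lower were CG4757 (-0.87), CG5707 (-0.79), CG3036 (-0.75) and AkhR (-0.54), the receptor of the adipokinetic hormone through which fat body stores are mobilised. These 6 and fit lay together on the 2nd day because the same call chose them all, so what separates them is the other time points.

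At 12 hrs, outside the time point by which fit was chosen, both arrays that measured it gave low values. Earlier results of these data were known when fit was chosen. Replicate 1, with PTZ in Cy5, gave -0.85, or 55.4% of NF, and replicate 3, with PTZ in Cy3, gave -1.25, or 42.0% of NF. Both dye orientations therefore placed fit below NF, on the side that 15.8% of the 5895 features measured on both of these arrays shared. Replicate 1 ranked fit 45th from the bottom of 4237 named genes and replicate 3 ranked it 5th of 3589. Of the 4092 named genes measured on at least 2 arrays of 12 hrs, 5 had a lower mean.

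The 2 arrays fall short of the 3 that the 12 hrs fit required, so fit has no test there in the planned design, in which limma called 0 of 5760 features (0%; 135 at an unadjusted p under 0.05). With at least 2 arrays required, a setting in which 0 of 7459 features were called (0%; 239 at an unadjusted p under 0.05), the mean of fit had an SE of 0.19 and a 95% interval of -1.56 to -0.54, with a limma adjusted p of 1. The 12 hrs difference therefore did not pass.

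None of the other 6 named genes called lower on the 2nd day was comparably low at 12 hrs. CG8654 had a 12 hrs mean of 0.61 (n = 4), CROT 0.26 (n = 4), CG3036 0.16 (n = 4), CG5707 0.09 (n = 4) and CG4757 0.12 on its single array. AkhR was at -0.25 (n = 3), with arrays from -0.65 to 0.23. The 12 hrs difference between fit and these genes was not tested.

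**Figure D2:**
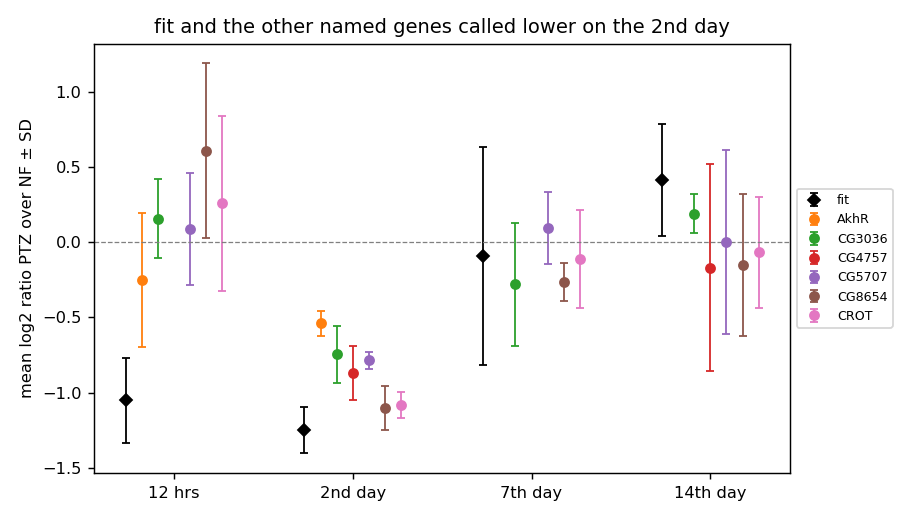
Mean log2 PTZ over NF at each time point for the 7 named genes called lower on the 2nd day, with bars of 1 SD, drawn where at least 2 arrays measured the gene. fit (diamonds) is at -1.05 at 12 hrs, where the 5 others drawn lie between -0.25 and 0.61, and at 0.41 on the 14th day, where the others drawn lie between -0.17 and 0.19.

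On the 7th day the arrays disagreed in direction. Replicate 1 gave -0.60 (65.8% of NF), replicate 3 gave -0.40 (75.6%) and replicate 4 gave 0.74 (166%). Replicate 4, the array whose treatment text describes withdrawal, was the one above 0, and there fit ranked 24th from the top of 4816 named genes.

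The 7th day mean of -0.09 (SE 0.26, 95% interval -0.71 to 0.52) had a limma adjusted p of 0.919, and 0 of 7289 features passed (0%; 612 at an unadjusted p under 0.05). Without replicate 4 the mean was -0.50 (n = 2), and without replicate 1 it was 0.17, so its sign rested on single arrays. Yp3, a yolk protein gene that female fat body expresses, was likewise at -1.28, -1.44 and -0.51 on replicates 1 to 3 of the 7th day and at 0.91 on replicate 4. Yp1, another yolk protein gene, was at -0.94 on replicate 1 and at 0.99 on replicate 4. Other sex-biased fat body genes ran the opposite way: Obp99b, an odorant binding protein gene, read 0.23, 0.06 and 0.13 on replicates 1 to 3 and -1.20 on replicate 4, and Cyp4d21, a cytochrome P450 gene known as sxe1, read 0.37 and -0.32 on replicates 1 and 2 and -0.84 on replicate 4. The list of sex-biased genes was not split by which sex expresses each gene more. How these opposite readings relate to the direction of sex bias was therefore not tested. Whether replicate 4 is a withdrawal sample was not tested.

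On the 14th day, after 7 days of withdrawal, every array placed fit above 0. Replicate 1 gave 0.36 (128% of NF), replicate 2 gave 0.15 (111%), replicate 3 gave 0.19 (114%) and replicate 4 gave 0.95 (194%). Replicate 4 stood above the other 3, which lie within 0.21 of each other. Of features with 4 arrays, 4.42% were above 0 on every 14th day array.

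The 14th day mean of 0.41 (SE 0.18, 95% interval 4e-04 to 0.82) had a limma adjusted p of 1, and 0 of 6464 features passed (0%; 141 at an unadjusted p under 0.05), so the higher level did not pass. The mean stood at percentile 98.4 of all features, with 33 of 3561 named genes higher. Without replicate 4 it was 0.23, at an adjusted p of 0.844.

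**Figure D3:**
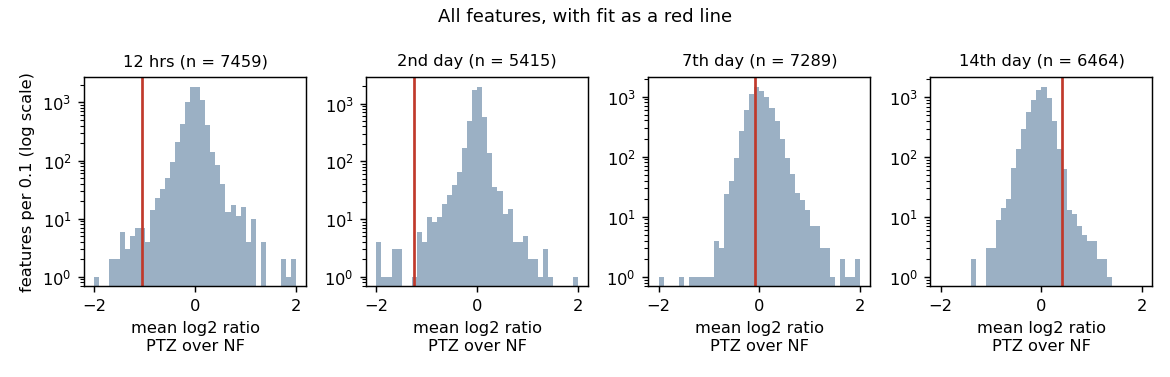
Number of features (log scale) per 0.1 of mean log2 PTZ over NF at each time point, over features with at least 2 arrays at 12 hrs and at least 3 elsewhere, with the mean of fit as a red line; means beyond the axis are counted in the end bins. fit lies in the lower tail at 12 hrs and on the 2nd day, near the middle on the 7th day and in the upper tail on the 14th day.

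Ordered by their means, the time points ran 2nd day, 12 hrs, 7th day and 14th day. The 2nd day and 12 hrs overlapped, with means 0.20 apart. The 7th day and 14th day also overlapped, and their difference of 0.50 (SE 0.34, 95% interval -0.26 to 1.27) had a limma adjusted p of 0.692, with 0 of 5881 features called (0%). Without replicate 4 of the 7th day that difference was 0.92, with too few arrays left on the 7th day for the planned test. When that array was instead counted with the 14th day and 2 arrays were allowed on the 7th day, it was 0.98, at an adjusted p of 0.402.

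Between the early and the late pair of time points the arrays did not overlap. The 14th day lay 1.46 above 12 hrs, and all 4 of its arrays were above both 12 hrs arrays, as was the case for 1.76% of the 2839 features with enough arrays. With at least 2 arrays at each time, a setting added after the data were seen, this difference had an SE of 0.29 and a 95% interval of 0.81 to 2.12, but a limma adjusted p of 1 over 6205 features, none of which passed (0%). The 7th day lay 0.96 above 12 hrs without overlap, which 3.7% of 5348 features also did, with an SE of 0.41, a 95% interval of -0.01 to 1.93 and a limma adjusted p of 0.787 (0.136% of 5889 features called, against 0.135% of 4460 with the planned 3 arrays). Without replicate 4 of the 7th day it was 0.55. The 14th day lay 1.66 above the 2nd day, a 3.16-fold difference, and the 7th day 1.16 above it (0.75 without replicate 4 of the 7th day), both without overlap. These last differences rest on the 2nd day values that chose fit and were not tested, and 2.05% of 2148 and 1.7% of 3532 features were separated in the same way.

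The 2 spots of fit gave the same sign on all 13 arrays, so no array's direction rested on 1 spot. The absolute difference between the spots had a median of 0.13 and ranged from 0.01 to 0.49. It was largest on replicate 3 of the 7th day, where the spots read -0.65 and -0.16 and where 94.2% of the genes with exactly 2 spots differed by less. Next was replicate 3 of 12 hrs, with -1.07 and -1.43, where 86.6% differed by less. On the 2nd day the spots read -1.11 and -1.15 on replicate 1, -1.58 and -1.33 on replicate 2, -1.09 and -1.17 on replicate 3, and -1.36 and -1.21 on replicate 4. Both spots were thus below -1 on every 2nd day array, and spots of 1 array share its RNA and are not replicates.

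As deposited, before turning and centring, the 2nd day spots of fit were negative on replicates 1 and 2 (-1.78 to -1.15) and positive on the dye swap replicates 3 and 4 (0.98 to 1.25), so the deposited sign of fit changed with the dye that carried PTZ. Over the 9 arrays outside the 2nd day, fit averaged -0.24 with PTZ in Cy5 (SD 0.58, n = 4) and 0.04 with PTZ in Cy3 (SD 0.89, n = 5). That difference of -0.28 had a two-sided exact permutation p of 0.579, where the smallest p this design can give is 0.00794. The test pooled time points whose means differ, so its p does not isolate the dye. Without centring the difference was 1.08 (exact permutation p = 0.151), since the array medians of the late time points are far from 0. The mean over those 9 arrays was -0.08, with a two-sided exact sign-change p of 0.75 (smallest possible 0.00391), the low 12 hrs and the high 14th day arrays lying on opposite sides of 0.

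**Figure D4:**
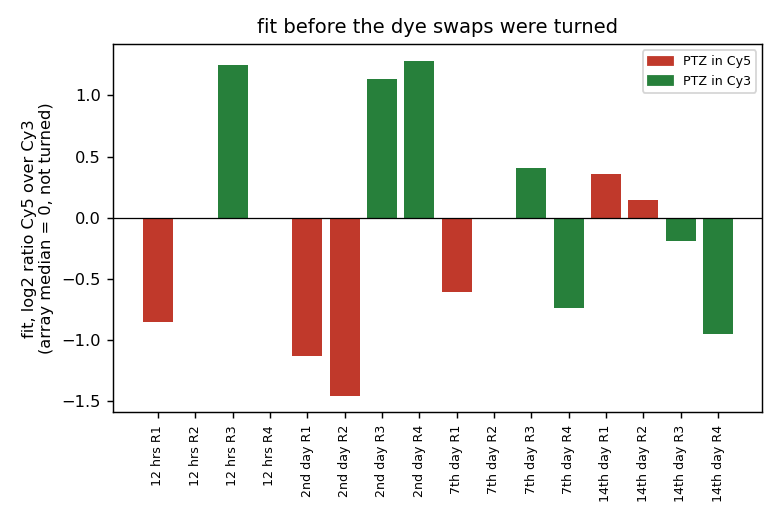
Log2 Cy5 over Cy3 of fit on each array, centred on the array median but with the dye swaps not turned; red bars have PTZ in Cy5, green bars PTZ in Cy3, and an array without a bar gave no value. The bars of 12 hrs, like those of the next time point, point down in red and up in green, and those of the 14th day the other way, while on the 7th day the 2 green bars point opposite ways.

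Other genes known for sex-biased expression in head fat body were measured on 2 to 9 arrays, except Yp3 with 15, and none passed the test at any time point. Over all features 0.222% passed on the 2nd day and 0% at 12 hrs, the 7th day and the 14th day. The lack of calls is therefore not particular to these genes. Of 7 such genes taken for comparison, 6 are named on the array, and 1, 1, 3 and 4 had at least 3 arrays at 12 hrs, the 2nd day, the 7th day and the 14th day. Yp3 had means of -0.08 (SD 0.68), -0.68 (SD 0.88), -0.58 (SD 1.07) and 0.44 (SD 0.08) in that order. Its 2nd day arrays read -0.20, 0.30, -1.18 and -1.63, so unlike fit it was below 0 on 3 of 4, with the dye swap arrays lowest. Without replicate 4 its 7th day mean was -1.08 (n = 3). Its 3 measured 14th day arrays lay between 0.35 and 0.51, all above NF as for fit.

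Yp2, another yolk protein gene, was measured at 12 hrs on the dye swap replicates, at -0.79 and -1.03, and on the 14th day at 0.43, -0.40 and -0.72. Cyp4d21 had a 14th day mean of 0.75 with arrays from -0.45 to 2.52, the highest being replicate 4, on which fit too was highest. Obp99b was at -0.19 on the 7th day and -0.11 on the 14th day (n = 4 each), and without replicate 4 its 7th day mean was 0.14 (n = 3). sxe2 had 1 array at 12 hrs (-0.65) and 1 on the 14th day (-0.05).

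Of 7 sex determination genes, 4 are named on the array and at most 1 at a time could be tested, with no call. Per time point, 0% to 0.222% of all features were called. dsx, the transcription factor at the end of that pathway, was at -0.50 at 12 hrs (SD 0.62, n = 3) and -0.41 on the 2nd day (SD 0.40, n = 4), with at least 1 array above 0 each time. tra2, the splicing partner of transformer, was at -0.16 on the 7th day (n = 3). tra and fru had no time point with 3 arrays.

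Of 22 fat body markers, 15 are named on the array. At 12 hrs all 7 that were tested were below 0 (median -0.25), on the 2nd day 6 of 10 (median -0.15), on the 7th day 5 of 8 (median -0.05) and on the 14th day 7 of 9 (median -0.10), while the median of all features was within 0.01 of 0 each time. Without replicate 4 the 7th day median of the same 8 was 0.11, with 2 below 0. The only call among them was AkhR on the 2nd day, where 0.203% of all features were called lower. Taken per array, the median of the list was lowest at -0.18 and highest at 0.02 among 12 hrs arrays. The lowest and highest arrays were -0.32 and 0.10 for the 2nd day, -0.33 and 0.26 for the 7th, and -0.25 and 0.11 for the 14th. The part of fat body content in the values of fit was not tested.

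Within that list apolpp, which encodes the apolipophorins that carry lipid in the haemolymph, followed an order like that of fit and was measured on all 16 arrays. It read -0.70, -0.25, -0.44 and -0.62 at 12 hrs, then -0.85, -0.28, -0.84 and -0.94 on the 2nd day. On the 7th day it read -0.63, -0.39, 0.25 and -0.33, and on the 14th day 0.58, -0.31, 0.69 and 0.39. All 8 early arrays are below 0 and 3 of the 4 withdrawal arrays above it, with means of -0.50, -0.73, -0.28 and 0.34, none of which passed.

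Its partners in lipid transport were closer to NF. Apoltp, the lipid transfer particle apolipoprotein, had means of -0.27, -0.07, -0.23 and -0.10, and Mtp, which loads lipid onto apolipophorin, was at -0.31 at 12 hrs and -0.25 on the 2nd day. FASN1, fatty acid synthase, was at 0.00 (n = 4) and Desat1, a fatty acid desaturase, at 0.36 (n = 3) on the 2nd day. Adgf-A, an adenosine deaminase growth factor, was at -0.23 (n = 3). Gpdh1, a glycerol-3-phosphate dehydrogenase, read -0.16, -0.67 and -0.997 on the 3 arrays of the 2nd day that measured it, -1.07 and -0.26 on the 7th day, and 0.50 and 0.11 on the 14th day, but was at -0.08 at 12 hrs (n = 4). bmm, a triglyceride lipase gene, was above 0 on all 4 arrays of the 2nd day, with a mean of 0.60. Of the 9 fat body markers tested on the 14th day, apolpp and Desat1 (0.04) alone had means above 0. FASN1 was at -0.08, Adgf-A at -0.01 and Mtp at -0.11 on that day. The markers CG5966 and Fbp2 were at 0.21 and 0.24 on the 7th day (0.45 and 0.41 without replicate 4). On the 14th day they were at -0.43 and -0.37. Each of these means missed the threshold or had too few arrays for a test.

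Lists for other cell types and tissues gave no calls, with 1 to 6 markers tested per list and time point. Called features made up 0.222% of all on the 2nd day and 0% at the other time points. Neurons had 2 of 10 markers named on the array, photoreceptors 7 of 10, glia 6 of 8, haemocytes 5 of 7, ovary and germline 8 of 18, and muscle 3 of 6. Their list medians on the 2nd day ran from -0.22 (glia) to 0.11 (muscle).

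Among 31 feeding and satiety signals, 12 are named on the array, and between 6 and 8 were tested at each time point. List medians were 0.05, -0.03, 0.08 and -0.07 at the 4 time points in order, and AkhR on the 2nd day, the gene already counted with the fat body markers, was the only call (0.203% of all features were called lower). Ilp2, the insulin-like peptide of the brain cells on which fit acts, was at 0.03 (n = 3), 0.02, 0.03 and -0.15 (n = 4 each), and on the 2nd day its arrays read 0.23, 0.16, -0.13 and -0.20, on both sides of 0. S6k, a kinase downstream of amino acid sensing, was at 0.11, -0.05, -0.26 and 0.10 (n = 4 each), and at -0.41 on the 7th day without replicate 4. Mip, a neuropeptide gene tied to satiety, Lst, a gene for a peptide that restrains insulin-like peptide release, NPFR, the receptor of neuropeptide F, and Lkr, the leucokinin receptor, lay between -0.09 and 0.29 wherever at least 3 arrays measured them.

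The likeness of other genes to fit was measured by Pearson r of the log2 ratios over the arrays that measured both, for the 1391 named genes with at least 12 shared arrays. It is a description: the arrays are shared, their 4 time points are clustered, and arrays of opposite orientation correlated less than those of the same one. The median r was -0.01 and the 5th and 95th percentiles were -0.43 and 0.43. The 6 most like fit were CG5958 (r = 0.78), CG3597 (0.77), CLIP-190 (0.75), which encodes a linker of membranes to microtubules, l(2)SH0834 (0.74), Rtnl1 (0.73), a reticulon of the endoplasmic reticulum, and CG6689 (0.72). apolpp followed at rank 8 with 0.69 over 13 arrays, and Yp3 was at rank 24 with 0.56.

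CG5958 had means of -0.25, -0.43, -0.14 and 0.28 at the 4 time points, with 2nd day arrays from -0.72 to -0.04, so its 2nd day mean was nearer to NF than that of fit. CLIP-190 was at -0.05, -0.02, -0.11 and 0.35, and Rtnl1 at -0.10, -0.17, -0.06 and 0.42, so their likeness lay mostly in the 14th day. CG3597 was at 0.08, -0.19, 0.07 and 0.32, l(2)SH0834 at -0.10, -0.26, -0.15 and 0.12, and CG6689 at 0.09, -0.07, 0.20 and 0.21. With at least 10 shared arrays, CG3823 (r = 0.86) and Jhbp1 (0.79) ranked above CG5958, and without replicate 4 of the 7th day CG5958 was not among the first 6. By the mean absolute difference, which takes size into account, apolpp was closest and CG5958 alone of the 6 stayed among the first 6, where CROT and Yp3 entered.

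**Figure D5:**
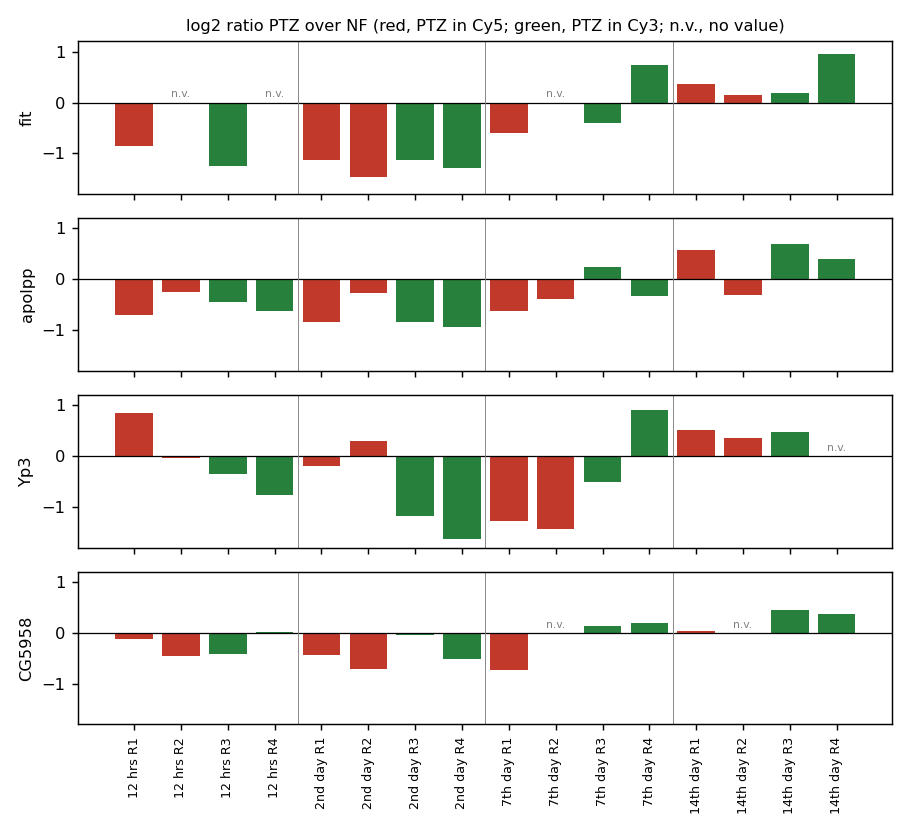
Log2 PTZ over NF on each array for fit, apolpp, Yp3 and CG5958, the gene with the highest r with fit among those with at least 12 shared arrays; red bars have PTZ in Cy5, green bars PTZ in Cy3, and n.v. marks an array without a value. fit spans -1.46 to 0.95 over its 13 arrays and apolpp -0.94 to 0.69 over 16, both below 0 on every measured array of the first 2 time points.

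The genes least like fit were Prps, phosphoribosyl pyrophosphate synthetase of nucleotide synthesis (r = -0.75), Cchl, cytochrome c heme lyase (-0.68), and Miox, myo-inositol oxygenase (-0.68). Prps was at 0.01, 0.33, -0.01 and -0.13 in time order, its highest mean falling on the 2nd day. Cchl was at 0.00, 0.12, 0.00 and -0.19, and Miox at 0.45, 0.28, -0.08 and 0.00.

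In the Release 6 gene table, used for names and order only, 2 genes overlap fit, CG31465 and the antisense RNA asRNA:CR45046. Neither is named on the array, and signal from an overlapping transcript cannot be told apart from that of fit on its spots. Of the 5 genes listed on each side, these 2 included, 5 of 10 were named and measured. CG17819, the next gene on 1 side, was at -0.22 on the 7th day (n = 3) and -0.17 on the 14th day (n = 4), with 14th day arrays from -0.93 to 0.32. CG6656, the fifth gene on the other side, was the only neighbour measured on the 2nd day, at 0.00 with arrays from -0.32 to 0.49. P5CDh2 was at 0.00 at 12 hrs (n = 4) and 0.44 on the 7th day (n = 3), CG6678 was at -0.27 on the 14th day (n = 4), and dnd had 2 arrays on the 7th day and 2 on the 14th. CG6678 and dnd had no value at 12 hrs or on the 2nd day, and CG17819 had 1 array at 12 hrs (-0.15), so the early levels of most neighbours are not known from these arrays.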

How the data were processed

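Labelled antisense RNA from PTZ and NF heads was hybridized to 2-colour arrays. The authors scanned them, applied ratio-based normalization in Acuity, removed weak, saturated, flagged and uneven spots, and deposited log2 ratios of Cy5 over Cy3. Their centring is not stated in the sources used. In total 53 ceiling values were treated as missing.

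Gene names came from the platform annotation and the Release 6 gene table. Array medians were subtracted, and dye swaps were multiplied by -1. The sign follows the labels. On the 2nd and 7th days, genes the study lists as lower, fit left out, lay at opposite ends of the deposited values on straight and swapped arrays. No such list was used for the 14th day. Spots of 1 gene were averaged, and unnamed neighbours paired.

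With R 4.3.3 and limma 3.58.1 each time point's mean was tested against 0 over features with at least 3 arrays (lmFit, eBayes, two-sided, Benjamini-Hochberg, called at an adjusted p under 0.19), and differences between time points likewise. fit alone was tested by exact permutation. On simulated data for the 7th day and the 14th day (7289 and 6464 features), 80% and 73% of changes of 1 log2 unit were recovered, and 33% and 19% of changes of 0.5. The simulated noise was independent between arrays, and 100 features were changed by each size. It gave 139 and 115 calls, where the real arrays gave 0, and more calls ease the Benjamini-Hochberg threshold. These rates therefore do not give the power for fit.

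Named genes were fit, the 6 most and 3 least like it, up to 5 neighbours a side, and up to 6 members a list, those on the most arrays. apolpp and Yp3 beyond that, Gpdh1, bmm, CG3823, Jhbp1, the other genes called lower on the 2nd day, and list members with fewer than 3 arrays were named after their values were seen. So were CG5966 and Fbp2. fit and the lists were chosen with earlier results of these data known. Array number limits the precision. Replicates are separate pools of heads.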

Additional observations from a re-analysis of the deposited data

Results flagged for a closer look

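The values of fit at 12 hrs and on the 14th day lay on opposite sides of 0 on every array that measured it, 1.46 apart on the log2 scale, and those of the 2nd day and the 14th day 1.66 apart. The second of these differences was not tested, since the 2nd day chose fit, and the first had a limma adjusted p of 1 with at least 2 arrays at each time.

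Among 26 groups of 4 arrays (fit, the 6 genes most like it, apolpp and Yp3) 3 held an array far from the rest, where chance gives about 1 in 20 groups. CG3597 on replicate 3 of 12 hrs was at -0.20, below the other 3 arrays. CLIP-190 on replicate 2 of the 7th day was at -0.57, an array with no value for fit. apolpp on replicate 2 of the 2nd day was at -0.28, above the other 3 arrays, while fit had its lowest value, -1.46, on that same array.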

How the results depend on the processing

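Over the alternatives run, fit was between -1.29 and -1.18 on the 2nd day and between 0.23 and 0.66 on the 14th day. At 12 hrs it was between -1.25 and -0.85, which are its 2 single arrays. Alternatives that required at least 3 arrays could not fit it there and repeated its plain mean. The 12 hrs range therefore does not test stability. The 7th day mean had no stable sign: it was 0.059 from spot 2 alone and ran from -0.50 to 0.17 with each replicate left out. The 14th day minus 12 hrs difference ran from 1.26 to 1.71, 7th day minus 12 hrs from 0.55 to 1.22, and 14th day minus 7th day from 0.25 to 1.04. No difference passed where it was tested. The 2 differences from 12 hrs were tested only with 2 arrays allowed at each time. The 14th day minus 7th day difference had no test when replicate 1, 3 or 4 of the 7th day was left out. The Cy5 minus Cy3 difference turned to 1.08 without centring. Of the 6 genes most like fit, 2 remained without centring, 1 by mean absolute difference, 3 with at least 10 shared arrays and 3 without replicate 4 of the 7th day. Allowing 2 arrays in the differences from 12 hrs was added after seeing the data. So were moving replicate 4 of the 7th day in the 14th minus 7th day difference, and omitting it from the exact tests, the likeness, the 7th minus 2nd day difference and the 7th day values of other genes.

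The counts of features called depended on the setting, and the cause was not tested. On the 2nd day, 11 lower calls became 0 with the trend and robust eBayes, 6 in 1 fit over 16 arrays, 4 at an adjusted p under 0.05 and 3 with a SAM-type statistic, and 0 to 10 with each replicate left out. The 1 higher call became 2 from spot 1, 0 with the trend and robust eBayes, at 0.05 and with SAM, and 0 to 1 with each replicate left out. At 12 hrs there was 1 higher call in the 16-array fit and 1 lower call with SAM. On the 7th day there was 1 higher call without centring and 1 with a dye term, and lower calls numbered 1 with centring on the mean, 1 with a dye term, 3 in the 16-array fit and 1 with SAM.

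The replicate numbers were not treated as pairs in the main fits. Deviations of same-numbered arrays correlated at -0.20 to 0.35, over 0.1 in 6 of 24 pairs and below 0 in 10. Same-numbered arrays of 12 hrs and the 2nd day read 0.19, 0.23, 0.08 and 0.18. Whether the numbers mark shared material was not tested. With the replicate number as a block the 16-array fit gave 6 lower and 0 higher calls on the 2nd day, 2 lower on the 7th day and 1 higher at 12 hrs, and fit was at -0.17 on the 7th day and 0.41 on the 14th. The block gave a 14th day minus 7th day difference of 0.59, at a limma adjusted p of 0.534.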
